A study of Mus musculus with 9 samples.

Results

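The SOCS family of cytokine feedback inhibitors was followed across blood progenitors of the mouse bone marrow. Its members were taken by name, as the probe sets whose only gene symbol in the array's annotation is Cish or Socs1 to Socs7. This gave 8 genes, read by 24 of the 45037 probe sets on the array and ranked among 18193 genes. Socs2 has 6 probe sets, Socs4 and Socs7 have 4 each, Socs3 and Socs6 have 3 each, Socs5 has 2, and Cish and Socs1 have 1 each.

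The study profiled RNA of sorted marrow cells from mice aged 6 weeks, with 3 arrays for each of 3 groups, and set stem and multipotent progenitors beside granulocyte-monocyte progenitors with and without nicastrin. The LSK WT group holds lineage-negative, cKit+, Sca1+ cells of Ncstn flox/flox mice, and the GMP WT group holds lineage-negative, cKit+, Sca1-, CD34+, FcγRII/III+ cells of mice of that genotype. The GMP NcstnKO group holds cells of the GMP gate from Ncstn flox/flox, Mx1-cre+ littermates. Ncstn encodes nicastrin, a subunit of the γ-secretase protease that cleaves Notch receptors. From the age of 14 days, mice of every group were given polyIC, a mimic of viral RNA and an inducer of interferon, 3 times on alternate days at 20 µg per g, and were analysed 4 weeks after it. Mx1-cre is switched on by interferon in many cell types, so the deletion is not limited to GMP, and the transgene itself was carried by the knockouts alone: its effect and that of the deletion cannot be told apart. LSK cells of knockout mice were not analysed here. The sources do not say whether each array is a different mouse, so p-values measure the spread between these arrays.

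SOCS proteins are brakes on cytokine receptors that signal through JAK kinases and STAT transcription factors. A cytokine activates STATs, STATs switch on several SOCS genes, and the SOCS proteins then bind the receptor or the kinase through an SH2 domain and recruit a ubiquitin ligase through the SOCS box at their C-terminal end. In blood formation the best known members are SOCS3, which limits the G-CSF receptor and gp130, SOCS1, which limits interferon-γ signalling, and CIS (Cish) and SOCS2, which follow STAT5 activity.

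The promoters of Cish and Socs3 are shown because both genes differed about as strongly between LSK and WT GMP and because each holds the sequence TTCNNNGAA, the core that STAT5 and STAT3 are known to bind. RefSeq promoters of assembly GRCm38.p6, from 250 bases before to 50 after the start site, were read for Cish, Socs1, Socs3 and Socs4. Promoters of the other members were not read here, both of genes that differed and of genes that did not. The windows therefore cannot show whether this sequence goes with the differences over the family. Capitals mark each TTCNNNGAA. The pattern reads the same on both strands, so a search of 1 strand covers both. The Cish window is chr9:107296409-107296708 on the plus strand, and the Socs3 window is chr11:117969317-117969616 on the minus strand.
Cish: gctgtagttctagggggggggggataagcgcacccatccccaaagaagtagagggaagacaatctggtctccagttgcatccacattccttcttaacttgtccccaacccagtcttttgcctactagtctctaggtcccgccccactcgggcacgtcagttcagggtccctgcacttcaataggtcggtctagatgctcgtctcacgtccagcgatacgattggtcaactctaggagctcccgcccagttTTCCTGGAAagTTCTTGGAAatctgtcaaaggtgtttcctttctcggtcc
Socs3: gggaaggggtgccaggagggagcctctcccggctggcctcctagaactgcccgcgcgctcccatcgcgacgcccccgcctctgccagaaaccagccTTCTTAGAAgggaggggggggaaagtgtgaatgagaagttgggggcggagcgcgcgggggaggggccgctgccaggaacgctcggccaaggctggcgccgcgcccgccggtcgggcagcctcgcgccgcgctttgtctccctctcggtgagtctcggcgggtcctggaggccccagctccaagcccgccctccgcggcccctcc
The Cish window held 2 copies, TTCCTGGAA beginning at base 1 after the start site and TTCTTGGAA beginning at base 12, which do not overlap. The Socs3 window held 1 copy, TTCTTAGAA, whose first base lies 154 bases before the start site. The Socs1 and Socs4 windows held 0 copies. Of 32851 RefSeq promoters of the same length, 2726 (8.30%) held at least 1 copy and 150 (0.457%) held at least 2. A match is a description of the letters and not a measured binding site.

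The arrays were checked before the members were compared. Ncstn stood at a log2 intensity of 8.99 to 9.31 on the 6 WT arrays and at 7.76 to 7.79 on the 3 knockout arrays, 2.82-fold lower in NcstnKO than in WT GMP (limma adjusted p = 0.000287). Sex-specific transcripts went against the labelled sex on 4 of the 6 GMP arrays, WT replicates 2 and 3 and NcstnKO replicates 2 and 3; by transcripts, 1 of 3 LSK, 1 of 3 WT GMP and 3 of 3 NcstnKO arrays were female. The log2 ratio of 3′ to 5′ Actb signal, a sign of RNA quality, was 0.75 ± 0.11 (SD, n = 3) in LSK, 0.58 ± 0.11 in WT GMP and 0.90 ± 0.14 in NcstnKO GMP. The WT and NcstnKO GMP ratios did not overlap (exact permutation p = 0.1, the smallest that 20 arrangements allow). The deposited median intensity was 98.3 to 103 per LSK array and 65.4 to 68.6 per GMP array. For this reason each direction between LSK and GMP was also read under 2 other scalings, quantile normalization and a centring of each array on its 75th percentile, which moved the median of all genes in WT GMP against LSK from -0.18 to 0.05 and 0.17 on the log2 scale. Of the genes that define the gates, Kit and Cd34 were measured in every group at a mean log2 intensity of 10.8 to 12.6; Fcgr3 rose from 10.69 in LSK to 11.79 in WT GMP, and Ly6a, the gene of Sca1, was not analysed here. In sorted populations such as these, fewer cells of a type and less RNA per cell cannot be told apart.

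Cish, Socs2, Socs3 and Socs5 were lower in WT GMP than in LSK, the first 3 by about 10-fold. The fall in Socs2 was read by all 6 of its probe sets and that in Socs3 by all 3. Socs1, Socs4, Socs6 and Socs7 did not pass the test. In nicastrin-deficient GMP, Socs3 was 3.65-fold higher than in WT GMP, and Socs4 and Socs6 were 1.44-fold and 1.81-fold lower. The adjusted p of these 3 differences lay between 0.0364 and 0.0428, and each call was lost under 11 of 17 other ways of fitting the data that keep over 1 array per group.

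In WT GMP against LSK, 0 SOCS genes were higher and 4 of 8 were lower at an adjusted p under 0.05, where 7.48% of all genes were called higher and 30.5% lower. The 3 arrays of 1 group all lay below the 3 of the other for 6 of 8 genes, against 54.6% of all genes whose groups did not overlap. The median log2 fold change was -0.90 over the 8 genes and -0.18 over all genes. By probe set, 12 of 24 were lower and 0 higher, where 28.8% of all probe sets were called lower and 6.04% higher, with a median of -0.86 against -0.20 over all probe sets. Of the 12, 6 read Socs2 alone, so probe sets are not separate members. The groups did not overlap for 14 of 24 probe sets, against 51.8% of all. In NcstnKO against WT GMP, 1 SOCS gene was higher and 2 were lower, where 2.44% and 3.26% of all genes were called; 3 of 8 did not overlap between groups, against 31.9% of all genes. The median was -0.12 over the 8 genes and 0.06 over all genes. By probe set 0 of 24 passed in this comparison with limma, where 0.604% of all probe sets were called higher and 1.15% lower, and 8 of 24 had an unadjusted p under 0.05. The probe sets did not overlap between groups for 8 of 24, against 27.2% of all. The 3 comparisons share arrays, so their values are given side by side and were not set against each other.

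**Figure D1:**
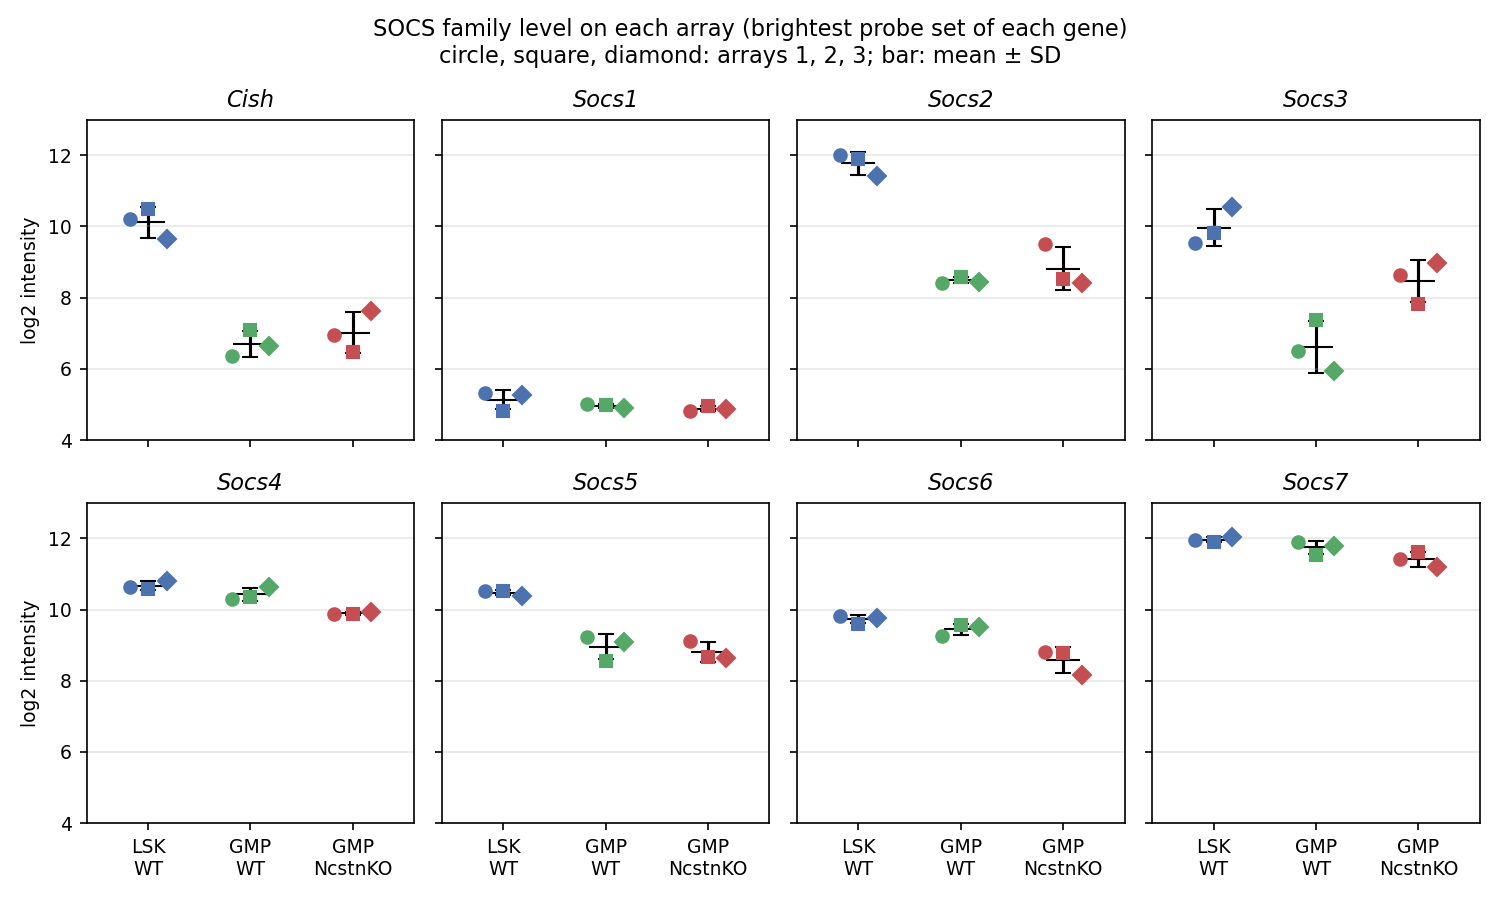
Log2 intensity of the brightest probe set of each SOCS gene on each array, by group; circles, squares and diamonds are arrays 1, 2 and 3, and bars give the mean ± SD of 3 arrays. Cish, Socs2 and Socs3 lie at least 2.16 lower on every WT GMP array than on any LSK array, and Socs3 on every NcstnKO array lies above the WT GMP arrays. Levels of different genes come from different probes and are not comparable.

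Socs3 and Socs1 encode the members that also block JAK kinase activity directly, through a short kinase inhibitory region. On its brightest probe set, 1455899_x_at, Socs3 stood at a log2 intensity of 9.54, 9.80 and 10.55 in LSK, at 6.50, 7.38 and 5.94 in WT GMP and at 8.63, 7.82 and 8.98 in NcstnKO GMP. The 3 groups did not overlap: LSK was highest, NcstnKO GMP came between and WT GMP was lowest. WT GMP lay below LSK by a log2 fold change of -3.36 (SE 0.43, 10.2-fold, adjusted p = 0.000557), with a gap of 2.16 between the nearest arrays. NcstnKO GMP lay above WT GMP by 1.87 (SE 0.43, 95% interval 0.90 to 2.84, adjusted p = 0.0428), with a gap of 0.44. Against LSK, NcstnKO GMP was lower by a log2 fold change of -1.49 (2.81-fold, adjusted p = 0.0194). Socs3 was also among the most variable genes between arrays of a group: its residual SD of 0.62 was larger than that of 97.7% of all genes.

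The other Socs3 probe sets gave the same order of group means but with more overlap. On 1456212_x_at the arrays read 9.28, 9.50 and 10.52 in LSK, 6.72, 7.13 and 5.53 in WT GMP and 7.65, 7.26 and 8.67 in NcstnKO GMP, so the GMP groups were separated by 0.13. On 1416576_at they read 8.25, 8.24 and 6.91 in LSK, 5.61, 6.30 and 5.47 in WT GMP and 6.29, 6.53 and 7.40 in NcstnKO GMP. Here the GMP groups overlapped, since WT replicate 2 was above NcstnKO replicate 1. LSK replicate 3, the highest array on the x_at probe sets, was the lowest of its group. It lay below NcstnKO replicate 3, so NcstnKO GMP and LSK overlapped too. The suffix x_at marks probe sets with probes that can match other transcripts. All 3 probe sets were called lower in WT GMP than in LSK, at -3.36, -3.30 and -2.01. In the fit over all probe sets, the differences between NcstnKO and WT GMP were 1.87 (adjusted p = 0.0658), 1.40 (0.183) and 0.95 (0.265), and none passed. Against LSK, NcstnKO GMP was called lower in that fit on both x_at probe sets, at -1.49 and -1.91. On 1416576_at it was not called (-1.06, adjusted p = 0.0748).

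**Figure D2:**
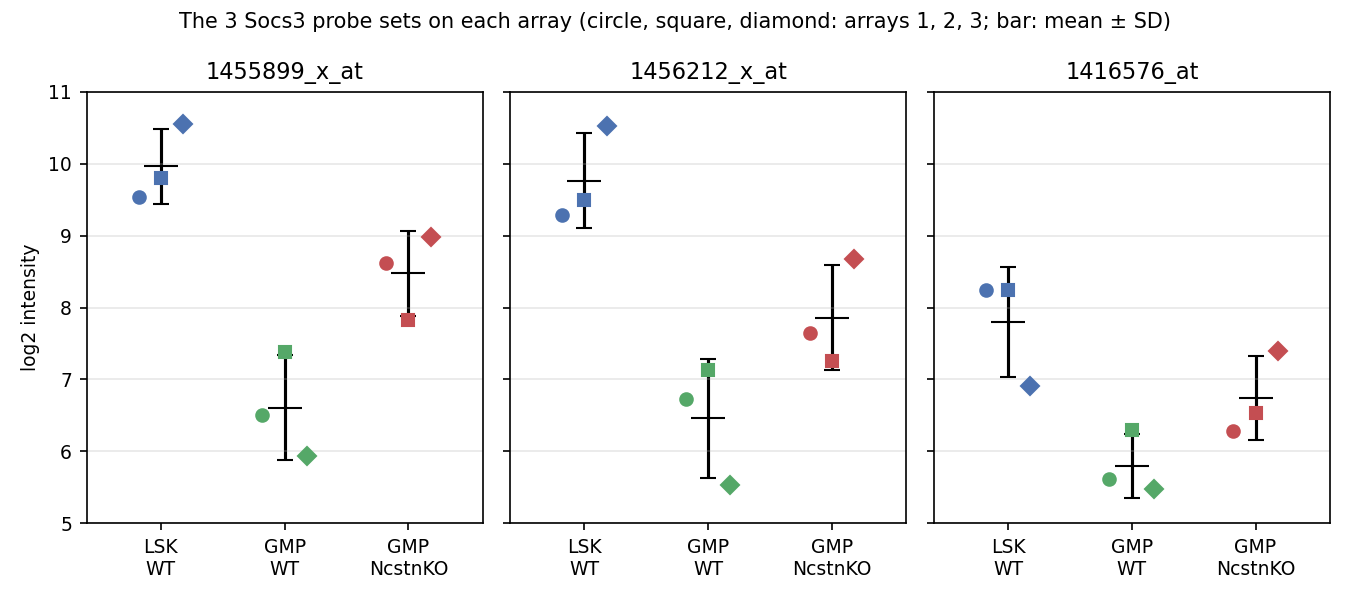
Log2 intensity of the 3 Socs3 probe sets on each array; circles, squares and diamonds are arrays 1, 2 and 3, and bars give the mean ± SD of 3 arrays. Every probe set puts LSK highest on average and WT GMP lowest; LSK replicate 3 is highest at 10.55 on 1455899_x_at and lowest of its group at 6.91 on 1416576_at.

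Markers of maturing neutrophils stood in the same order of groups as Socs3. For 12 such genes measured, from Camp to Cxcr2, the summed intensity was 75070 to 100900 per LSK array, 35410 to 47430 in WT GMP and 51070 to 59070 in NcstnKO GMP, and every marker was above background in each group. Of the 12, 11 were called lower in WT GMP than in LSK. In NcstnKO against WT GMP, 1 was called higher, the granule peptide gene Camp (0.81, adjusted p = 0.0389), with a median of 0.50 over the list and 0.06 over all genes. Their part in the Socs3 differences was not tested. The genes of primary granules, Mpo, Elane, Prtn3, Ctsg and Ms4a3, went the other way in WT GMP against LSK, with 5 of 5 called higher, and 0 of 5 passed between the GMP groups (0 with an unadjusted p under 0.05 in limma), with summed intensities of 63590 to 65960 in WT and 61660 to 65970 in NcstnKO. Among 14879 genes above background in at least 1 group, those with mean-centred log2 levels nearest to Socs3 over the 9 arrays were Ceacam10, Wfdc17 and Tlr7, at mean absolute differences of 0.37, 0.40 and 0.45.

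Socs1 was dim. Its probe set read 5.31, 4.82 and 5.25 in LSK, 5.01, 4.98 and 4.89 in WT GMP and 4.80, 4.95 and 4.88 in NcstnKO GMP, and LSK replicate 2 fell within the range of the GMP arrays. The background limit, the 95th percentile of 27 unspiked bacterial control probe sets, was 4.30 to 4.58 per array, and the highest of these controls reached 4.87 to 5.08. Socs1 was thus above the limit, and at 4.80 to 5.01 in GMP it was close to the brightest controls. WT GMP differed from LSK by -0.17 (95% interval -0.47 to 0.13, adjusted p = 0.33) and NcstnKO from WT GMP by -0.08 (-0.38 to 0.21, adjusted p = 0.738). The sign between LSK and GMP turned positive under both other scalings, while without LSK replicate 2 Socs1 was called lower in WT GMP than in LSK (-0.32, adjusted p = 0.0291) and in NcstnKO GMP than in LSK (-0.41, adjusted p = 0.00866).

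Cish and Socs2 encode the members tied to STAT5: CIS competes for receptor docking sites and SOCS2 limits growth hormone signalling. Cish read 10.21, 10.48 and 9.64 in LSK, 6.37, 7.08 and 6.65 in WT GMP and 6.95, 6.47 and 7.62 in NcstnKO GMP. LSK stood clear of both GMP groups, which overlapped each other. Cish fell by 3.41 on the log2 scale from LSK to WT GMP (SE 0.32, 10.6-fold, adjusted p = 0.000145) and was 8.56-fold lower in NcstnKO GMP than in LSK (adjusted p = 0.000136). NcstnKO differed from WT GMP by 0.31 (95% interval -0.42 to 1.05, adjusted p = 0.594). The nearest genes to Cish in pattern were Ecscr, Trp53i11 and Myo5c, at mean absolute differences of 0.17, 0.17 and 0.19, the last at background in WT GMP.

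Socs2 on its brightest probe set, 1418507_s_at, read 12.00, 11.90 and 11.41 in LSK, 8.42, 8.59 and 8.45 in WT GMP and 9.51, 8.51 and 8.42 in NcstnKO GMP. LSK was again clear of the GMP arrays, and NcstnKO replicate 1 stood above the other 5 GMP arrays. Socs2 fell by 3.28 from LSK to WT GMP (SE 0.28, 9.74-fold, adjusted p = 8.75e-05) and was 7.78-fold lower in NcstnKO GMP than in LSK (adjusted p = 8.45e-05). NcstnKO differed from WT GMP by 0.32 (95% interval -0.31 to 0.96, adjusted p = 0.515), and by -0.02 without NcstnKO replicate 1. On 1449109_at the fall from LSK was 3.82, with arrays at 10.17, 10.10 and 9.38 in LSK and between 5.71 and 6.59 in GMP. The 4 dimmer probe sets, 1446085_at, 1442586_at, 1441476_at and 1438470_at, read 5.13 to 6.68 on LSK arrays and 2.91 to 4.67 on GMP arrays. On 3 of them WT GMP was at background, so their differences are bounds: Socs2 was at least 3.38-fold lower on 1442586_at, at least 3.45-fold on 1441476_at and at least 1.84-fold on 1438470_at. The 6 probe sets differed by 0.02 to 0.32 between NcstnKO and WT GMP and 0 passed. The genes nearest to Socs2 in pattern were Mapk11, Phactr1 and Sla2, at mean absolute differences of 0.16, 0.19 and 0.20; Mapk11 and Phactr1 were at background in WT GMP.

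**Figure D3:**
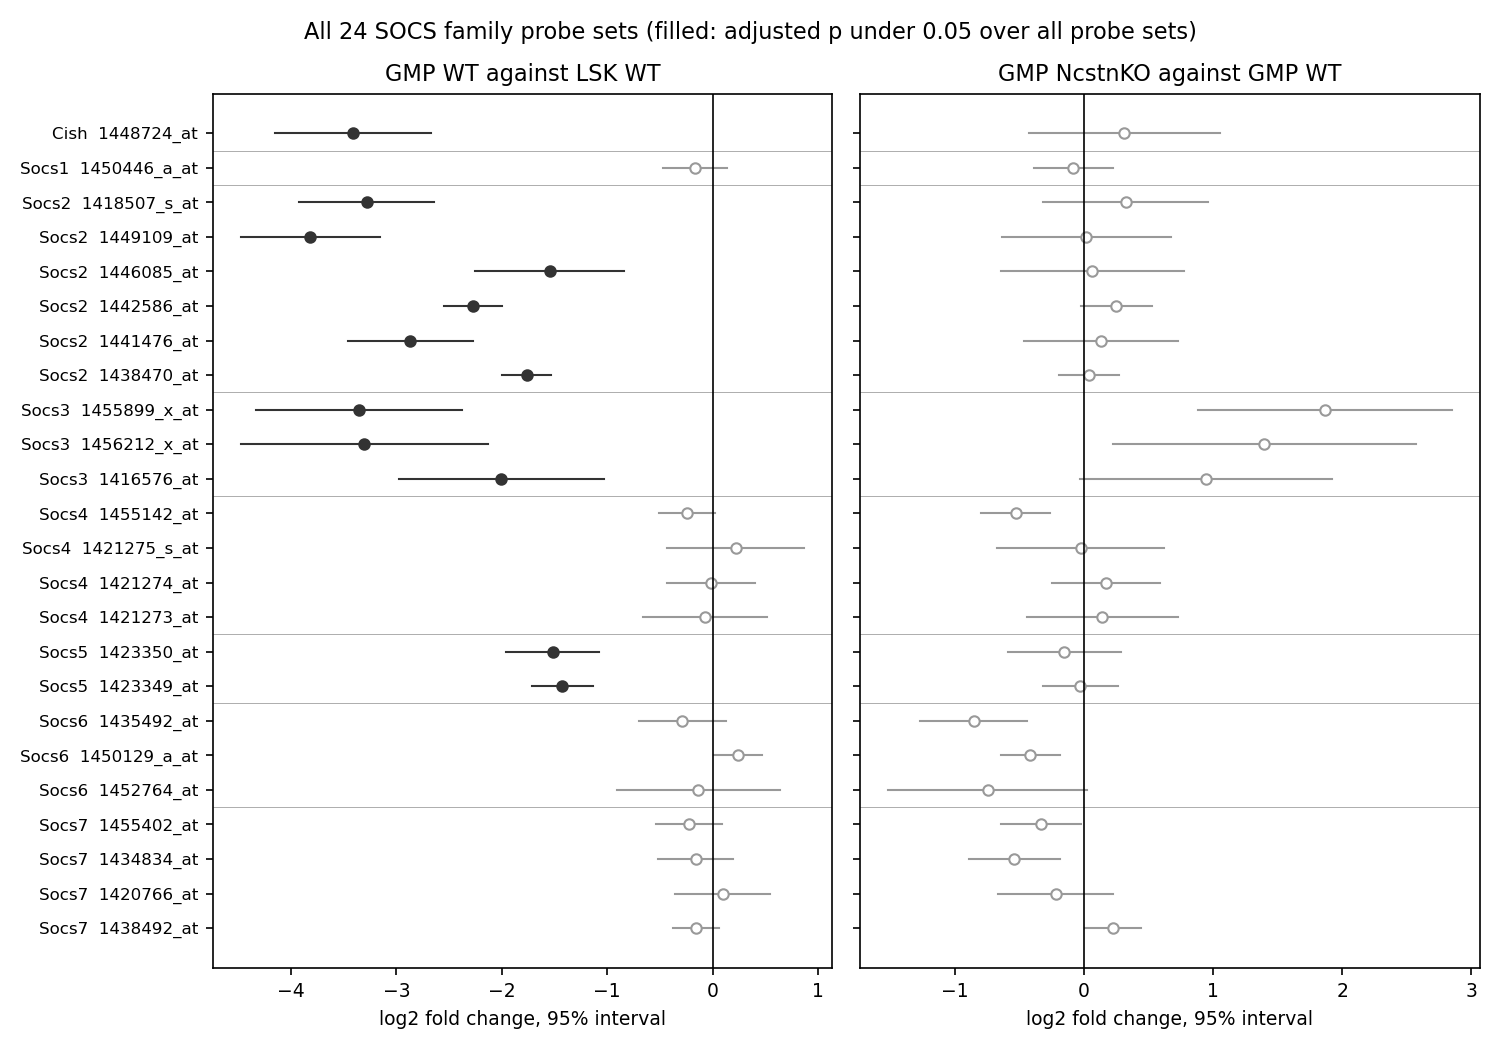
Log2 fold change with its 95% interval for all 24 SOCS probe sets, WT GMP against LSK on the left and NcstnKO against WT GMP on the right; filled points passed at an adjusted p under 0.05 over all 45037 probe sets. On the left 12 probe sets of Cish, Socs2, Socs3 and Socs5 lie below 0 and are filled, and on the right 0 are filled.

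Socs4 and Socs5 form a closely related pair, best known for limiting signalling of the EGF receptor. Socs5 on 1423350_at read 10.51, 10.51 and 10.39 in LSK, 9.22, 8.56 and 9.09 in WT GMP and 9.12, 8.65 and 8.63 in NcstnKO GMP. LSK arrays lay above every GMP array, and the GMP groups overlapped. Socs5 fell by 1.52 from LSK to WT GMP (SE 0.19, 2.87-fold, adjusted p = 0.000496), and its other probe set, 1423349_at, fell by 1.43 (adjusted p = 0.000149 in the fit over probe sets). NcstnKO GMP was 3.19-fold lower than LSK (adjusted p = 0.000201) and differed from WT GMP by -0.15 (95% interval -0.58 to 0.28, adjusted p = 0.666).

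Socs4 on its brightest probe set, 1455142_at, read 10.62, 10.57 and 10.81 in LSK, 10.29, 10.34 and 10.64 in WT GMP and 9.88, 9.87 and 9.94 in NcstnKO GMP. The knockout arrays lay within 0.07 of each other and below every other array, while LSK and WT GMP overlapped. NcstnKO differed from WT GMP by -0.53 (SE 0.11, 95% interval -0.79 to -0.27, adjusted p = 0.0388) and from LSK by -0.77 (adjusted p = 0.000781); WT GMP against LSK was -0.24 (adjusted p = 0.127), and -0.35 without WT replicate 3, when it was called (adjusted p = 0.0394). The other 3 probe sets did not share this: NcstnKO against WT GMP was -0.03 on 1421275_s_at, 0.17 on 1421274_at and 0.14 on 1421273_at, and their groups overlapped. With all probe sets of each gene averaged, Socs4 differed by -0.06 between the GMP groups (adjusted p = 0.848) and by -0.09 between NcstnKO GMP and LSK (adjusted p = 0.663). The Socs4 call thus rested on 1 of 4 probe sets.

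Socs6 and Socs7 form the other related pair, known for binding components of insulin signalling, and SOCS6 also binds the Kit receptor. Socs6 on 1435492_at read 9.82, 9.60 and 9.77 in LSK, 9.26, 9.56 and 9.51 in WT GMP and 8.82, 8.79 and 8.16 in NcstnKO GMP. Every knockout array was below every other array, and WT GMP and LSK were separated by 0.03. NcstnKO differed from WT GMP by -0.85 (SE 0.18, 95% interval -1.26 to -0.45, adjusted p = 0.0364) and from LSK by -1.14 (2.20-fold, adjusted p = 0.00103); WT GMP against LSK was -0.29 (adjusted p = 0.237). On 1450129_a_at the arrays read 8.76, 8.96 and 8.96 in WT GMP and 8.43, 8.46 and 8.54 in NcstnKO GMP, again without overlap, and on 1452764_at they read 5.80, 6.33 and 6.22 against 5.37, 5.99 and 4.75, with overlap. The 3 probe sets gave -0.85, -0.41 and -0.74, with adjusted p of 0.0565, 0.0725 and 0.268 in the fit over all probe sets. All 3 thus pointed below WT GMP in the knockout, and 2 of them did not overlap, without passing that fit. Against LSK, NcstnKO GMP was called lower in that fit on 1435492_at alone. The difference was -0.17 on 1450129_a_at (adjusted p = 0.196) and -0.88 on 1452764_at (adjusted p = 0.0645). WT GMP against LSK was 0.24 on 1450129_a_at and -0.14 on 1452764_at, neither of them called.

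Socs7 on its brightest probe set, 1455402_at, read 11.96, 11.91 and 12.03 in LSK, 11.91, 11.54 and 11.78 in WT GMP and 11.42, 11.62 and 11.19 in NcstnKO GMP. The ranges of the GMP groups overlapped, and LSK and WT GMP were all but touching. NcstnKO differed from WT GMP by -0.33 (SE 0.13, 95% interval -0.64 to -0.03, adjusted p = 0.169), WT GMP from LSK by -0.22 (adjusted p = 0.221) and NcstnKO from LSK by -0.56 (1.47-fold, adjusted p = 0.00867). The other probe sets disagreed in sign between the GMP groups, with -0.54 on 1434834_at, -0.22 on 1420766_at and 0.22 on 1438492_at. On each of these the GMP groups did not overlap. None of the 4 passed in the fit over probe sets, where the adjusted p ran from 0.109 to 0.584. Against LSK, NcstnKO GMP was called lower in that fit on 1455402_at and 1434834_at alone. The difference was -0.12 on 1420766_at (adjusted p = 0.638) and 0.07 on 1438492_at (adjusted p = 0.586).

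NcstnKO GMP against LSK gave 7 SOCS genes lower and 0 higher, where 32.3% of all genes were called lower and 14.6% higher, and 15 of 24 probe sets lower and 0 higher, where 32.1% of all probe sets were called lower and 11.4% higher. Of the 15 probe sets, 6 read Socs2 alone. Socs1 was the gene that did not pass (-0.25, adjusted p = 0.142). The 3 arrays of each group did not overlap for 7 of 8 genes, against 56.4% of all genes, and for 16 of 24 probe sets, against 54.3% of all. Under either other scaling 6 of the 8 genes were called: the call of Socs3 ended with quantile normalization (adjusted p = 0.0594) and that of Socs7 with centring (adjusted p = 0.293). Over all genes the split was 2648 higher and 5875 lower as deposited, 5439 and 3810 after quantile normalization, and 7959 and 3205 after centring. The Socs3 call also ended without LSK replicate 3 (adjusted p = 0.0641) and without NcstnKO replicate 2 (adjusted p = 0.0654). Without the 4 arrays at odds with their labelled sex, which leaves 1 NcstnKO array that is assumed to vary like the LSK arrays, 5 SOCS genes were called beside 3593 of all 18193 genes, and 9 SOCS probe sets beside 6315 of all 45037.

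The falls of Cish, Socs2, Socs3 and Socs5 from LSK to WT GMP passed in each of the 17 alternatives that keep over 1 array per group, with adjusted p of at most 0.0054. Their log2 fold changes were -3.06, -3.10, -2.98 and -1.25 after quantile normalization and -3.06, -2.94, -3.01 and -1.17 after centring on the 75th percentile. Over all genes the split of calls moved more: 1360 were higher and 5550 lower as deposited, 3607 and 2797 after quantile normalization, and 5948 and 2610 after centring. Of the 24 SOCS probe sets, 0 were higher and 12 lower as deposited, 3 and 12 after quantile normalization, and 1 and 12 after centring. Of all 45037 probe sets, 2722 were higher and 12988 lower as deposited, 7912 and 5802 after quantile normalization, and 12188 and 5832 after centring. A further fit without the 4 arrays at odds with their labelled sex reads WT GMP from 1 array, which is assumed to vary like the LSK arrays, and is given for its values alone. The values there were -3.74 for Cish, -3.35 for Socs2, -3.46 for Socs3 and -1.26 for Socs5.

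The calls between NcstnKO and WT GMP changed more with the fit, as did those over all genes. With the 2 GMP groups fitted alone 0 SOCS genes and 6 of all genes passed, at adjusted p of 0.0740 for Socs3, 0.0676 for Socs4 and 0.0740 for Socs6, and a fit that held the Actb ratio as a covariate passed 0 of all genes. The ratio differed between these groups in step with genotype, and its part in the differences was not tested beyond that fit. Leaving out the 4 arrays at odds with their labelled sex sets 1 array of each GMP group against the other, with the spread taken from the LSK arrays, and 1 of all genes passed there. It gives values rather than a usable test: 2.12 for Socs3, -0.40 for Socs4 and -0.44 for Socs6. Over the other 17 alternatives the log2 fold change was 1.40 to 2.26 for Socs3, -0.60 to -0.06 for Socs4 and -0.97 to -0.64 for Socs6. The signs were thus kept in these fits. With 1 array left out, fewer genes passed over the whole array too. Without WT replicate 1, WT replicate 3 or NcstnKO replicate 3, 0 SOCS genes passed, beside 437, 2 and 145 of all genes. Socs3 passed without WT replicate 2 or NcstnKO replicate 2, beside 230 and 477 of all genes, and Socs6 without NcstnKO replicate 1, beside 435.

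**Figure D4:**
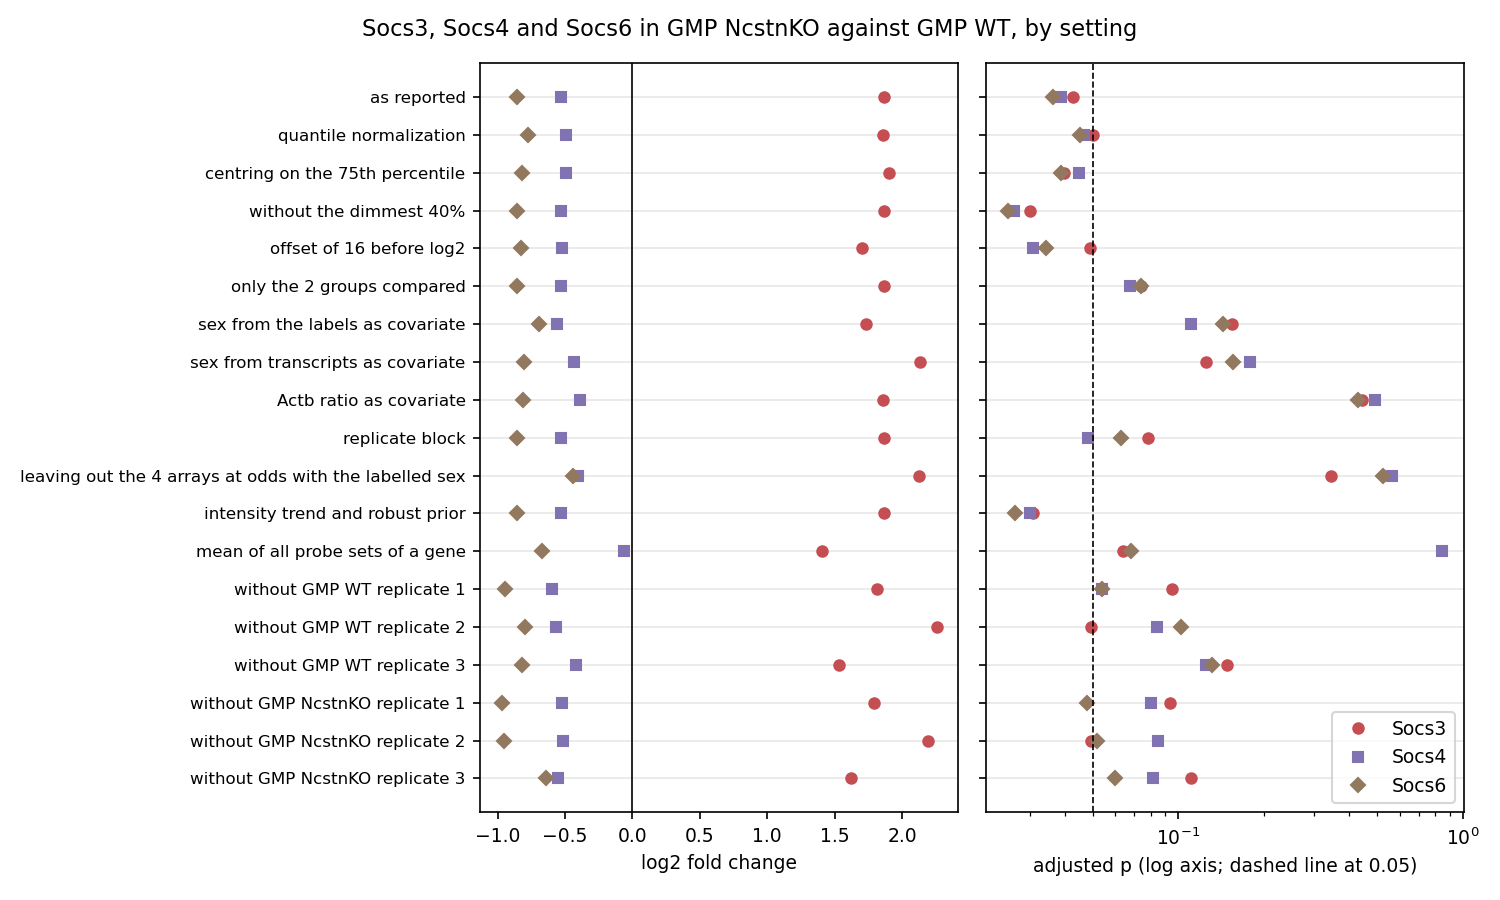
Log2 fold change (left) and adjusted p on a log axis (right) of Socs3, Socs4 and Socs6 in NcstnKO against WT GMP, as reported and under each of 18 alternatives; the dashed line marks an adjusted p of 0.05. Socs3 stays above 0, between 1.40 and 2.26, and Socs4 and Socs6 stay below 0, while each gene's adjusted p lies above 0.05 under 12 alternatives, 1 of them with a single array per GMP group.

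Cytokine ligands, the signals that induce SOCS genes, did not pass between the GMP groups in any of 20 measured genes; 3 had an unadjusted p under 0.05 in limma, and the smallest belonged to Il4, which drives STAT6 (0.51, adjusted p = 0.0618). After centring on the 75th percentile 1 ligand was called higher. From LSK to WT GMP 2 ligands were higher and 9 lower, with a median of -0.43; the split was 3 and 7 after quantile normalization and 4 and 8 after centring. Il6, the classical inducer of Socs3 through gp130, was at background in LSK at 3.80, 4.40 and 4.01 and read 7.83, 8.27 and 7.48 in WT GMP, at least 10.9-fold higher (adjusted p = 2.47e-05). In NcstnKO GMP it read 7.70, 7.82 and 7.27, overlapping WT. Il7, a lymphoid growth factor, was at least 3.85-fold lower in WT GMP and Il11, a gp130 cytokine, at least 1.82-fold lower, both at background there; Igf1, the growth hormone effector, fell by 2.32 (adjusted p = 0.000158).

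Of 27 cytokine receptor genes, 0 were higher and 1 was lower in NcstnKO than in WT GMP. That gene was Epor, the erythropoietin receptor, at 8.54, 7.18 and 8.04 in WT and 6.29, 6.18 and 6.82 in NcstnKO GMP (-1.49, adjusted p = 0.0389). Erythroid markers moved with it: of 12 measured, Epor among them, 7 were lower and 0 higher, with summed intensities of 18720 to 33530 in WT, 8232 to 12930 in NcstnKO and 40720 to 50040 in LSK, and Hba-a1 was at background in the 3 groups. Without the 4 arrays at odds with their labelled sex, where 1 of all genes passed, 0 of the 12 did, with a median of -2.10 in place of -1.59. Their part in the difference was not tested. From LSK to WT GMP 5 receptors were higher and 13 lower as deposited, 9 and 8 after quantile normalization, and 10 and 8 after centring. Ghr, the growth hormone receptor that SOCS2 limits, fell by 3.13 (adjusted p = 0.000143), Flt3, a receptor of early progenitors, by 2.43 (adjusted p = 0.000169), and Lifr, the receptor of LIF, was at least 6.15-fold lower (adjusted p = 0.000671). Ifngr1, the interferon-γ receptor chain, rose by 1.24 (adjusted p = 0.000151). Csf3r and Il6st, which encode receptors that SOCS3 binds, were not called: Csf3r, of G-CSF, differed by -0.23 between WT GMP and LSK and -0.17 between NcstnKO and WT GMP, and Il6st, of gp130, by -0.31 and -0.12.

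Among 10 JAK and STAT genes, 2 were lower and 0 higher in NcstnKO than in WT GMP, the kinase Jak1 (-0.56, adjusted p = 0.0271) and Stat5b (-0.50, adjusted p = 0.0427), with a median of -0.23. After quantile normalization 1 was lower. In WT GMP against LSK 7 were lower and 0 higher as deposited, 3 and 0 after quantile normalization, and 4 lower with 1 higher after centring. As deposited, those with the smallest p were Stat4 (-1.26, adjusted p = 0.000417), Jak1 (-0.80, adjusted p = 0.000569), Jak3 (-1.22, adjusted p = 0.00126) and Stat2 (-0.75, adjusted p = 0.00361). With 3 genes lower after quantile normalization, not all 4 of these calls held there.

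Of 13 genes listed here as other brakes on cytokine signalling, 3 were lower and 0 higher in NcstnKO than in WT GMP. Whether each listed gene, Ptpn11 among them, acts as a brake in these cells was not tested. Usp18, which limits type I interferon signalling, differed by -1.35 (adjusted p = 0.0264), the ubiquitin ligase gene Cblb by -0.53 (adjusted p = 0.0282) and the phosphatase gene Ptpn11 by -0.41 (adjusted p = 0.0429). From LSK to WT GMP 6 were lower and 0 higher as deposited, 4 and 1 after quantile normalization, and 3 and 2 after centring. As deposited, Pias3, an inhibitor of STAT3, fell by 0.96, Sh2b3 by 0.91, Usp18 by 1.50 and the phosphatase gene Ptprc by 0.57. With 3 genes lower after centring, not all 4 of these were called lower there. Another list held 8 genes: subunits of the ubiquitin ligase that the SOCS box recruits, and their neddylation partners Nedd8 and Ube2f. Of the 8, 1 was higher in NcstnKO than in WT GMP, the RING subunit gene Rnf7 (0.41, adjusted p = 0.0387). None of the 8 passed between WT GMP and LSK as deposited or after quantile normalization, where Ube2f had the smallest p as deposited (0.13, adjusted p = 0.31) and 0 had an unadjusted p under 0.05 in limma; 6 were called higher after centring.

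Of 17 other known STAT targets measured, 0 passed between NcstnKO and WT GMP and 6 had an unadjusted p under 0.05 in limma. The median was 0.45 against 0.06 over all genes. Of these 6, the gene with the smallest p, the cyclin gene Ccnd2, was on the low side (-0.50, adjusted p = 0.0552). The others of the 6 were on the high side, at 0.52 to 0.93. The 17 share 1 gene with the ligand list. In WT GMP against LSK 1 was higher and 11 lower as deposited, 1 and 6 after quantile normalization, and 3 and 5 after centring. Gbp2, an interferon-induced GTPase gene, fell by 2.13, Lcn2, a neutrophil granule gene that is also in the neutrophil list, by 1.70, the kinase gene Pim2 by 1.43 and the transcription factor gene Irf1 by 1.15. Without the 4 arrays at odds with their labelled sex, 0 members of these 6 pathway lists passed between NcstnKO and WT GMP, where 1 of all genes did.

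**Figure D5:**
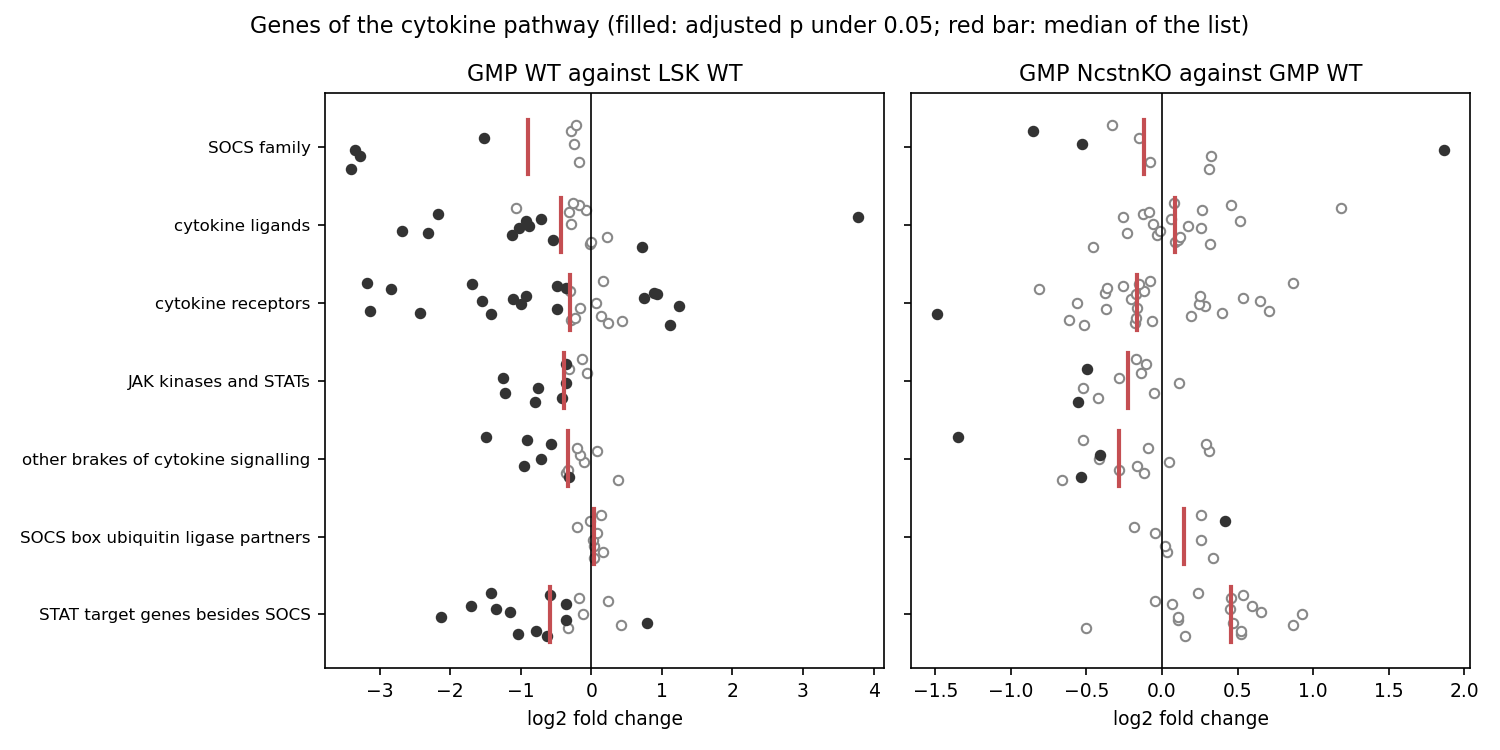
Log2 fold change of every measured gene of the SOCS family and 6 lists of the cytokine pathway, WT GMP against LSK on the left and NcstnKO against WT GMP on the right; filled points passed at an adjusted p under 0.05 and red bars give each list's median. On the right Socs3, at 1.87, is the point farthest above 0; on the left Il6, at 3.79, is.

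Markers of other cells that the gates could hold were also read. Of 10 monocyte and macrophage genes 3 were lower and 0 higher in NcstnKO than in WT GMP, all 3 of them C1q genes (C1qa, C1qb and C1qc). Of those not called, Vcam1, Cd14 and Ccr2 lay above WT GMP (0.29, 0.46 and 0.17). Adgre1, Csf1r, Cx3cr1 and Ly86 lay below it (-1.16, -0.52, -0.70 and -0.13). The summed intensities were 12700 to 15640 in WT and 11560 to 14970 in NcstnKO, against 6716 to 10300 in LSK. Without the 4 arrays at odds with their labelled sex, where 1 of all genes passed, 0 of the 10 did, and the median was 0.05 in place of -0.61. Of 9 B, T and NK cell genes 0 passed between the GMP groups in limma (1 with an unadjusted p under 0.05), and 8 were lower with 1 higher in WT GMP than in LSK; Cd3g and Ncr1 were at background in both GMP groups. Their part in the SOCS differences was not tested.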

How the data were processed

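RNA was measured on 9 arrays, 3 per group. Per the labels' protocols, 5 ng of total RNA was amplified and biotin-labelled. The authors deposited linear intensities per probe set; the submitters' processing notes name RMA, with no version. A joint normalization of the 9 arrays is not given in the sources used here. Columns of values not used numbered 0.

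Log2 intensities were taken here. A gene was read by its brightest probe set with 1 symbol. Group means were compared with limma 3.58.1 in R 4.3.3 (lmFit, eBayes, 2-sided, 9 arrays, 6 residual degrees of freedom). A call is a Benjamini-Hochberg adjusted p under 0.05 over all genes, or over all probe sets where said. The gene fit of NcstnKO against WT GMP was tested on simulated data with independent arrays. That simulation held no effect of sex, Actb ratio or shared array number, so it cannot speak to those. Each adjusted p comes from these limma fits or, where an alternative is named, from the limma fit of that alternative. A group was at background where its mean was at or below the 95th percentile of 27 control probe sets, and a fold against it is a bound computed against the higher of that limit and the signal. The array number limits the precision.

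The members, the gene lists and the tests were chosen with earlier results of these data known. Named genes are the members, Ncstn, up to 4 called members of each pathway list by smallest p (1 where none was called) and the 3 genes nearest to Cish, Socs2 and Socs3; Csf3r, Il6st and the named markers were chosen after their values were seen. Each array's difference from its group mean was taken over genes. Between LSK and WT GMP arrays of the same number, these differences correlated at 0.219, 0.238 and 0.291. The reported fits did not pair arrays, so their SE, intervals and p-values leave this correlation out. Numbers were treated as pairs only in the alternative named replicate block, from the data and not the labels. All 8 symbols matched RefSeq.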

Additional observations from a re-analysis of the deposited data

How the results depend on the processing

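The 4 calls in WT GMP against LSK were made under all 17 alternatives that keep over 1 array per group. As reported, 3 SOCS genes were called in NcstnKO against WT GMP; 0 were called with the 2 groups alone, with sex from the labels, with sex from transcripts, with the Actb ratio, or without the 4 arrays at odds with the labelled sex (an alternative chosen after seeing the data), where 6, 2, 2, 0 and 1 of all genes were, in place of 1037. With the mean of all probe sets 0 were called beside 549 of all genes, with the replicate block 1 beside 370, and 0 to 1 when 1 array was left out. For probe sets there, 0 were called as reported, beside 790 of all; 3 without the dimmest 40%, 2 with an offset of 16 and 3 with an intensity trend were, beside 1367, 1295 and 1415 of all. In NcstnKO GMP against LSK, 9 probe sets in place of 15 were called without the 4 arrays. The cause was not tested.

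Values that changed sign, none of them called, were as follows. In NcstnKO against WT GMP, Socs5 was 0.026 with sex from the labels, Socs1 0.17 and Socs2 -0.27 with the Actb ratio, and Socs2 -0.023 without NcstnKO replicate 1, in a range up to 0.52 with 1 array left out. In WT GMP against LSK, Socs1 was 0.20 and Socs6 0.015 after quantile normalization, and Socs1 0.18, Socs4 0.11, Socs6 0.062 and Socs7 0.13 after centring. In NcstnKO GMP against LSK, Socs1 was 0.078 and 0.13 under these scalings.

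The replicate block, the alternative that treats numbers as pairs, changed no SOCS call between LSK and WT GMP (4 genes, 12 probe sets). WT and NcstnKO GMP arrays shared only a number: their same-numbered deviations correlated at -0.0924, 0.00367 and 0.0219, and the block gave 370 calls over all genes beside 1037 without it. Socs1 lay near background, which limits what its probe set can show.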
